A study of Mus musculus with 12 samples.

Results

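The Notch pathway genes described here were the 4 receptor genes Notch1, Notch2, Notch3 and Notch4, the 2 Jagged ligand genes Jag1 and Jag2, and the 4 target genes Hes1, Hey1, Hey2 and Heyl. They were taken by gene name from the deposited table of gene counts, which held 23358 genes. All 10 were present, and all 10 were among the 16190 genes that passed the filter on low counts. The study asked how gene expression in the skull of newborn mice with a Crouzon mutation differed from wild type on a pair of genetic backgrounds. RNA was sequenced from the frontal bone, taken at postnatal day 3 with its coronal and frontonasal sutures and with the nasal bone. The mutants were heterozygous for FGFR2 C342Y, a model of Crouzon syndrome, in which sutures of the skull fuse early. Each of the 4 groups held 3 samples, namely C57BL/6 wild type (replicates 1 to 3), C57BL/6 mutant (4 to 6), BALB/c wild type (13 to 15) and BALB/c mutant (16 to 18). The tissue was dissociated with collagenase type II and trypsin before RNA extraction, so each library is a mixture of the cell types of the dissected region. The labels do not say whether each sample came from a separate animal, so the p-values measure the spread between these samples, which may be partly technical.

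Notch receptors are single-pass membrane proteins that are activated by ligands on a neighbouring cell. Ligand binding lets the protease ADAM10 and then the gamma-secretase complex cut the receptor, and the released intracellular part joins RBPJ and a Mastermind protein on DNA to switch on the Hes and Hey genes, which encode transcriptional repressors. In bone, Notch signalling is known for holding mesenchymal progenitors back from osteoblast differentiation, Jag1 is known from the boundary of the coronal suture, and Notch3, Notch4 and Heyl are best known from blood vessels.

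The promoter windows of 3 members are shown: Notch4 for its rise in C57BL/6 mutants, Notch2 for its lower level in BALB/c in both genotypes, and Hey2 because it alone of the windows at hand holds the core word of the RBPJ motif. Each gives, 5′ to 3′, the 250 bases before the start used in the RefSeq promoter table (build GRCm38.p6), with the word TGGGAA in capitals where it occurs on either strand (TTCCCA on the reverse strand).
Notch4, chr17:34564045-34564294, plus strand: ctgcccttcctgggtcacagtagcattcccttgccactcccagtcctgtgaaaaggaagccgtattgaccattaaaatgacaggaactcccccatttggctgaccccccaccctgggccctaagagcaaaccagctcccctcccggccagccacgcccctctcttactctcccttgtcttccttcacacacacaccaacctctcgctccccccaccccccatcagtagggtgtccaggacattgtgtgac
Notch2, chr3:98013288-98013537, plus strand: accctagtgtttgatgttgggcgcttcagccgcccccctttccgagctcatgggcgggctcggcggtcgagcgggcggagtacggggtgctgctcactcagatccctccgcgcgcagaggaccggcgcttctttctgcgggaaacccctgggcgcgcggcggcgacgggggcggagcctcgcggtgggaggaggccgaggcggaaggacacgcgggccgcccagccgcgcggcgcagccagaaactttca
Hey2, chr10:30842784-30843033, minus strand: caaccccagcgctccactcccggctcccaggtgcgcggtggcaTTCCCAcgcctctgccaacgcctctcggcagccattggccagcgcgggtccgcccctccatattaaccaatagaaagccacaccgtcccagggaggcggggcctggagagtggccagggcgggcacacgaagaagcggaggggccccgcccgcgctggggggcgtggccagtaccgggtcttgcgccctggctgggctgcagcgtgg
The Notch4 window held 4 CpG dinucleotides at 58.4% GC and the Notch2 window 34 at 72.0% GC, so these windows lie apart in base composition. The last 9 bases of the Notch4 window lie inside the RefSeq gene, which begins 9 bases before the start used. The Hey2 window held 22 CpG at 71.6% GC, and its match to the word was 1, on the reverse strand. RefSeq windows were at hand for 7 of the 10 members (not Hes1, Hey1 or Heyl), and 1 of these 7 held the word, beside 21.6% of all 32851 windows in the same table. The Jag2 window of that table is not shown, because its start lies 317 bases inside the RefSeq gene. A match is a description of the letters only.

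The libraries held 27181658 to 46521546 gene counts. Fgfr2, the mutated gene, had 248.8 ± 35.8 CPM (gene counts scaled to a common library size; mean ± SD, n = 3) in C57BL/6 wild type, 361 ± 20.6 in C57BL/6 mutant, 282 ± 11.4 in BALB/c wild type and 300 ± 24.95 in BALB/c mutant. Its level does not test the labels, since the mutation changes a codon and does not remove the transcript. Counts of 4 Y-linked genes were high and counts of Xist were low in 3 of 3 C57BL/6 wild type libraries and in 1 of 3 libraries of each other group. The sexes were thus not balanced between the C57BL/6 genotypes, nor between the wild types of C57BL/6 and BALB/c. The bone markers of the labelled tissue were abundant: 13 osteoblast genes together held 114040 to 263332 CPM. Markers of the nasal lining were unequal between groups. A list of 7 olfactory genes summed to 330 to 470 CPM in C57BL/6 wild type, 209 to 297 in C57BL/6 mutant and 150 to 170 in all BALB/c libraries. By the mean log2 CPM of the list, C57BL/6 mutant replicates 5 and 6 (2.34 and 2.31) lay within the BALB/c range (2.11 to 2.73). C57BL/6 mutant replicate 4 was at 4.63 and C57BL/6 wild type at 5.01 to 5.62. C57BL/6 mutant replicate 4 stood closer to wild type in these markers, with 36.1 CPM of Omp, the olfactory marker protein, against 0.485 in replicate 5 and 0.700 in replicate 6. BALB/c mutant replicate 16 stood apart in markers of muscle and nerve: 8 skeletal muscle genes summed to 366 CPM and 5 Schwann cell genes to 547 CPM there, against at most 64.3 and 73.7 in the other 11 libraries. The run names in the labels were shared by all samples of a strain and differed between strains, so strain and sequencing run cannot be told apart.

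All levels below are CPM after TMM scaling, and levels are compared between genes only per kilobase of the gene length in the deposited table. Per kilobase, averaged over the 12 samples, Hes1 was the most abundant member at 36.7 ± 6.08 CPM per kilobase (SD, n = 12), followed by Notch3 at 24.5 ± 2.00, Hey1 at 16.99 ± 2.51, Notch2 at 15.03 ± 3.17, Jag1 at 12.5 ± 1.88, Notch1 at 10.7 ± 1.48, Heyl at 10.04 ± 1.38, Notch4 at 6.98 ± 1.13, Jag2 at 5.55 ± 1.76 and Hey2 at 1.15 ± 0.287. Neighbours in this order overlapped in their ranges over the samples, except Heyl (lowest sample 8.13) against Notch4 (highest 8.02) and Jag2 (lowest 4.00) against Hey2 (highest 1.85). This order is that of the pooled means and changed in 3 groups. Jag2 (8.08) was above Notch4 (5.30) in C57BL/6 wild type, with no overlap of their samples, Notch2 (18.9) was above Hey1 (18.3) in C57BL/6 mutant, and Heyl (9.25) was above Notch1 (8.96) in BALB/c wild type, the last 2 pairs with overlap. Of the tested genes, 91.4% lay below Hes1 in this measure and 24.3% below Hey2. Hey2 rested on 80 to 180 counts per library, whereas no other member fell below 530 counts. Hey2 is therefore the member measured with least precision.

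Within the receptors, Notch3 supplied the largest share of the summed per-kilobase level in all 4 groups, and the make-up of the class differed by strain. In C57BL/6 wild type the mean shares were 40.6% for Notch3, 29.5% for Notch2, 20.6% for Notch1 and 9.28% for Notch4. In BALB/c wild type they were 46.4%, 22.04%, 17.3% and 14.2%. Notch2 thus took a smaller share and Notch4 a larger share in BALB/c wild type, with no overlap between the 3 samples of each group. Within the Jagged ligands, with other ligands left out, Jag2 held 40.2% ± 5.64 (SD, n = 3) in C57BL/6 wild type, 24.1% ± 5.47 in C57BL/6 mutant, 29.4% ± 3.24 in BALB/c wild type and 28.4% ± 2.05 in BALB/c mutant. Within the targets, Hes1 held 48.5% ± 0.236 in C57BL/6 wild type, 53.8% ± 2.44 in C57BL/6 mutant, 63.5% ± 3.41 in BALB/c wild type and 59.4% ± 0.997 in BALB/c mutant. The shares were not tested themselves, and a share can move because another member of its class moves.

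**Figure D1:**
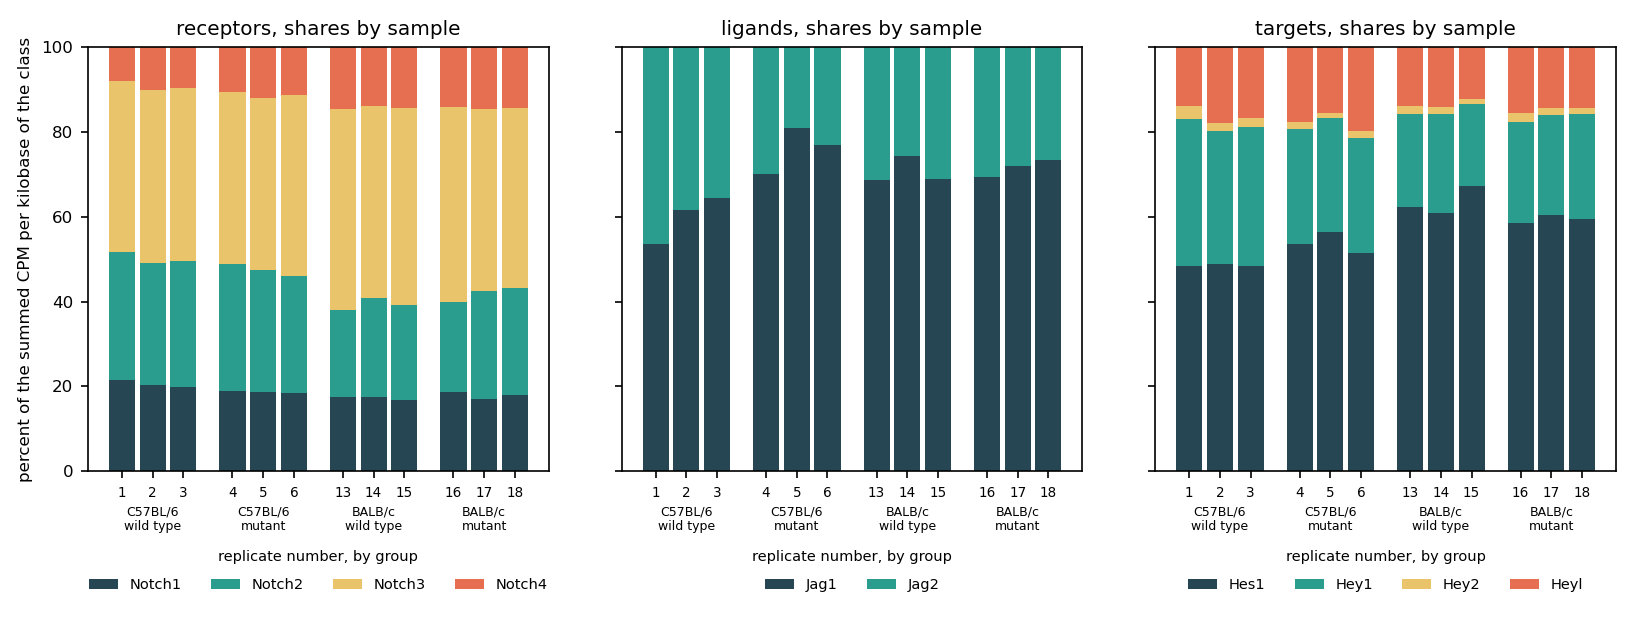
Shares of each class of Notch gene in the 12 samples: the vertical axis gives the percent of the summed CPM per kilobase of the receptors, the 2 ligands or the targets, and each bar is 1 sample, ordered by group. Jag2 takes 35.6% to 46.5% of the summed Jag1 and Jag2 level in the C57BL/6 wild type bars and 19.2% to 31.3% in all other bars.

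In C57BL/6, where mutant was compared with wild type, 6 of the 10 members differed. Notch3, Notch4, Jag1, Hes1 and Heyl were higher in mutant by 1.17- to 1.40-fold, and Jag2 was lower, at 0.596 of the wild type level. Calls rest on edgeR's quasi-likelihood test with Benjamini-Hochberg adjustment over all 16190 genes, at an adjusted p under 0.05. In the same comparison 23.9% of all genes were called, 11.3% higher and 12.6% lower, beside 5 members called higher and 1 called lower. The median log2 difference was 0.20 over the members and -0.00 over all genes. In bulk tissue, fewer cells of a type and less RNA per cell cannot be told apart, here or in any result below.

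Gene positions are those of the deposited table, with mm10 as the build in the submitters' processing notes. Notch1 (chromosome 2, 26457902 to 26503822), a receptor with broad expression, had 112, 113 and 109 CPM in the C57BL/6 wild type samples, in replicate order, and 113, 117 and 118 in the C57BL/6 mutant samples. The mutant samples lay just above the wild type samples, and the log2 difference of 0.06 (SE 0.065; edgeR adjusted p = 0.536) did not pass the test and turned to -0.14 with total counts in place of TMM. Notch2 (chromosome 3, 98013538 to 98150367), a receptor known for its part in bone remodelling, had 174, 178 and 179 CPM in wild type and 198, 201 and 196 in mutant. Every mutant sample was above every wild type sample, yet the log2 difference of 0.17 (SE 0.074; edgeR adjusted p = 0.119) did not pass the test and was -0.03 with total counts. Notch3 (chromosome 17, 32120893 to 32166852), a receptor of pericytes and vascular smooth muscle, had 175, 190 and 187 CPM in wild type and 202, 213 and 230 in mutant. The groups did not overlap, and the log2 difference was 0.23 (SE 0.071; edgeR adjusted p = 0.0378). Notch4 (chromosome 17, 34564295 to 34588543), a receptor of endothelial cells, had 29.4, 39.3 and 36.3 CPM in wild type and 44.3, 53.0 and 50.1 in mutant. It had the largest increase of the members, with a log2 difference of 0.49 (SE 0.097; edgeR adjusted p = 0.00557), and again no mutant sample fell into the wild type range.

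The ligands moved in opposite directions. Jag1 (chromosome 2, 137081451 to 137116520), the Jagged ligand known from the coronal suture and from vessel walls, had 62.9, 67.3 and 65.8 CPM in wild type and 75.0, 92.3 and 83.7 in mutant. All mutant samples were higher, and the log2 difference was 0.36 (SE 0.078; edgeR adjusted p = 0.00839). Jag2 (chromosome 12, 112908590 to 112929495), a Jagged ligand known from epithelia, had 40.3, 31.1 and 26.8 CPM in wild type and 23.7, 16.2 and 18.6 in mutant. Wild type replicate 1 was the highest of all 12 samples, mutant replicate 4 was the closest to wild type, and the ranges did not overlap. Jag2 fell by 0.75 on the log2 scale (SE 0.158; edgeR adjusted p = 0.00750), the largest change of any member in this comparison.

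Among the targets, Hes1 and Heyl rose while Hey1 and Hey2 did not pass the test. Hes1 (chromosome 16, 30065357 to 30067796), a repressor that Notch induces in many tissues, had 44.9, 39.2 and 40.2 CPM in wild type and 50.6, 59.3 and 49.3 in mutant. No samples overlapped, and the log2 difference was 0.36 (SE 0.081; edgeR adjusted p = 0.0101). Heyl (chromosome 4, 123233556 to 123249870), a Hes-related repressor known from vascular smooth muscle, had 40.5, 44.7 and 43.4 CPM in wild type and 52.1, 51.5 and 59.4 in mutant. The 2 groups were again apart, with a log2 difference of 0.34 (SE 0.092; edgeR adjusted p = 0.0207). Hey1 (chromosome 3, 8663359 to 8667038), a repressor also induced in osteoblast cultures by bone morphogenetic proteins, had 48.8, 38.4 and 41.5 CPM in wild type and 38.5, 43.0 and 39.5 in mutant. The samples overlapped, and the log2 difference was -0.09 (SE 0.106; edgeR adjusted p = 0.572). Hey2 (chromosome 10, 30832359 to 30842783), best known from arteries and the heart, had 4.68, 2.89 and 3.27 CPM in wild type and 2.80, 2.13 and 2.64 in mutant. All mutant samples were lower, but the log2 difference of -0.52 had a 95% interval from -1.07 to 0.04 (edgeR adjusted p = 0.153). In all, the groups did not overlap for 9 of the 10 members, 7 higher and 2 lower, beside 41.6% of all genes tested, 19.7% higher and 21.9% lower.

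**Figure D2:**
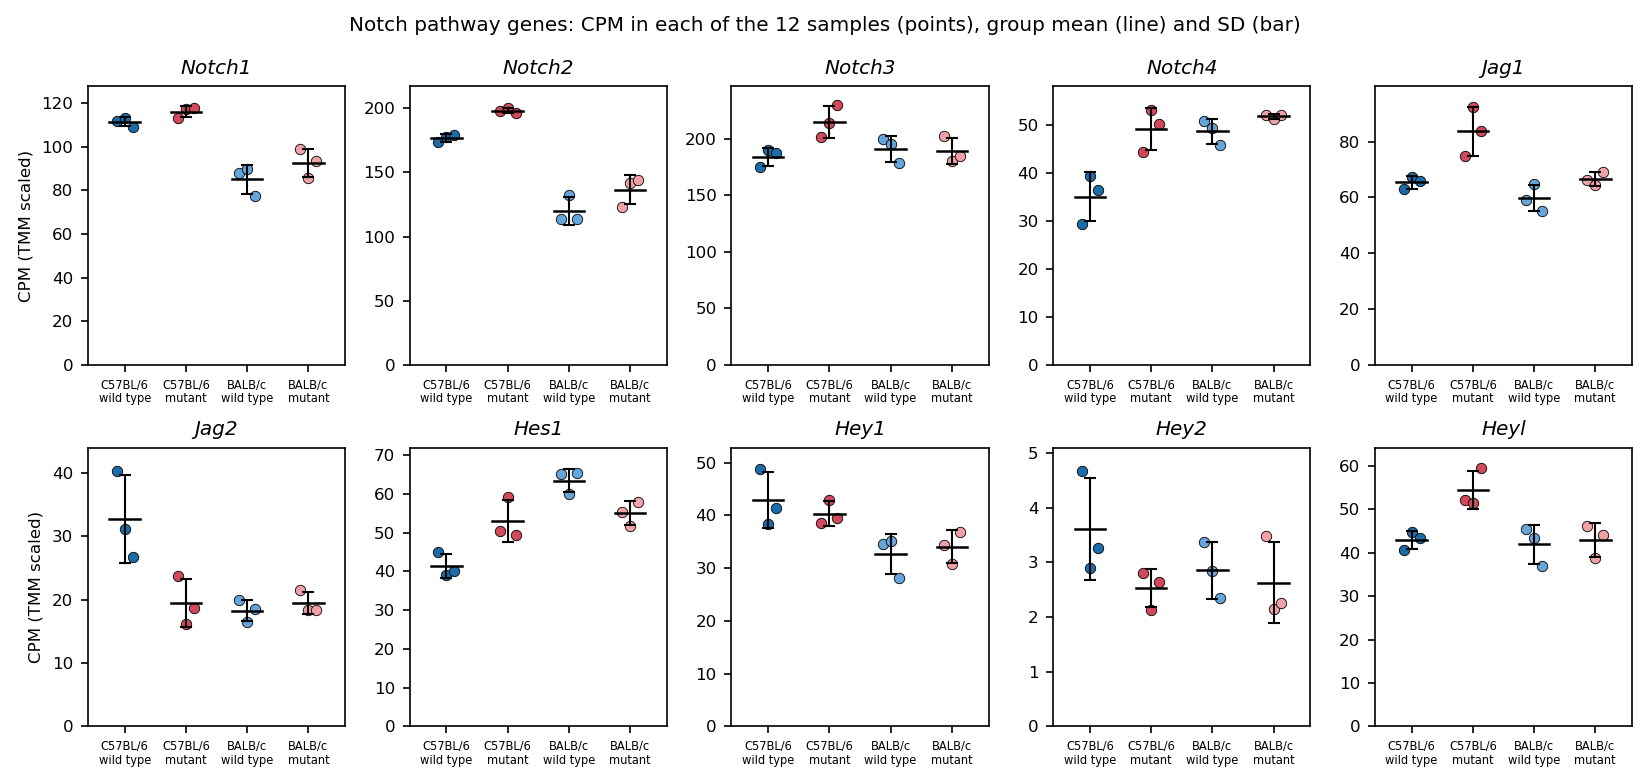
CPM of the 10 Notch pathway genes in the 12 samples: each panel is 1 gene, points are samples, lines are group means and bars are SD (n = 3). Jag2 is highest in C57BL/6 wild type (26.8 to 40.3 CPM, against 16.2 to 23.7 in the other groups), and Hes1 is lowest there (39.2 to 44.9, against 49.3 to 65.4).

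The rise of Notch3 was the weakest of these calls: it was lost without any 1 of the 5 C57BL/6 samples other than mutant replicate 4 (adjusted p 0.0531 to 0.153), and that of Heyl was lost without wild type replicate 1 (0.0634) or mutant replicate 6 (0.0947), all by edgeR. Notch4, Jag1, Jag2 and Hes1 kept their calls in each of the 6 fits that left out 1 sample. With total counts in place of TMM the median of all genes moved to -0.20 and the calls became 616 higher and 4064 lower (TMM: 1835 and 2032), and of the members Notch4 and Jag2 were still called, while Notch3 (log2 0.03), Jag1 (0.16), Hes1 (0.15) and Heyl (0.15) were not. A fit of the 6 C57BL/6 samples alone called Jag1, Hes1 and Heyl and not Notch3, Notch4 or Jag2 (edgeR adjusted p 0.0964, 0.0545 and 0.0562).

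Markers of several cell types moved between the same groups. The 14 endothelial genes summed to 684 to 810 CPM in C57BL/6 wild type and 836 to 1036 in C57BL/6 mutant, and 4 of the 14 were called higher. The 12 mural cell genes, which mark pericytes and smooth muscle, summed to 995 to 1090 CPM in wild type and 986 to 1040 in mutant, with 1 called higher and 1 lower. The olfactory list, given above, was lower in mutant (4 of 7 called lower, 1 higher), as were 10 ciliated cell genes (39.1 to 52.3 CPM in wild type, 21.6 to 25.4 in mutant, 6 called lower) and 7 basal epithelial genes (76.6 to 268 CPM in wild type, 3.35 to 40.6 in mutant, 5 called lower). Krt14, a defining keratin of basal epithelium, had 1.29 to 24.6 CPM in wild type, 0.587 in mutant replicate 4, 0.0485 in replicate 5 and 0 in replicate 6. Osteoclast genes (9 of 9) and osteoblast genes (11 of 13) were called higher, 7 of 7 erythroid genes were called lower, as were 4 of 7 lymphoid and 4 of 9 myeloid genes (1 myeloid gene higher), and 7 cartilage genes summed to 4886 to 7018 CPM in wild type and 265 to 2645 CPM in mutant (4 called lower).

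Jag2 was highest in the library with the highest olfactory and ciliated levels, C57BL/6 wild type replicate 1. The basal epithelial list did not share that order: Krt5 and Krt14 were highest in wild type replicate 2 (81.6 and 24.6 CPM) and lower in replicate 1 (9.40 and 2.81). Notch3 and Heyl were highest in the library with the highest summed endothelial level, C57BL/6 mutant replicate 6 (1036 CPM). The defining endothelial genes Pecam1 and Cdh5 did not share that order: they were highest in mutant replicate 5 (129.7 and 176 CPM) and lower in replicate 6 (111 and 158). The mural list did not share it either, with 1018 CPM in mutant replicate 6 and its highest sum, 1090 CPM, in C57BL/6 wild type replicate 2. With the mean log2 level of either the ciliated or the endothelial list as a covariate, 0 of the 10 members were called between the C57BL/6 genotypes. Few genes of any kind were: 2 of 16190 with the ciliated and 174 with the endothelial covariate. Genotype carried 76% and 69.9% of the variance of these covariates in C57BL/6, so such a fit also removes most of the contrast. The Jag2 difference was -0.13 with the ciliated covariate against -0.75 without it, and -0.48 with the endothelial one, while that of Hes1 was 0.37 and 0.39. Notch3 was at 0.0584 and 0.0123, Notch4 at 0.0800 and 0.22, Jag1 at 0.13 and 0.20, and Heyl at 0.21 and 0.0542, ciliated covariate first. The part of cell composition in these results was not tested further, nor was that of sex (with the Y-linked level as a covariate 5 of the 6 calls stood, all but Notch3).

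**Figure D3:**
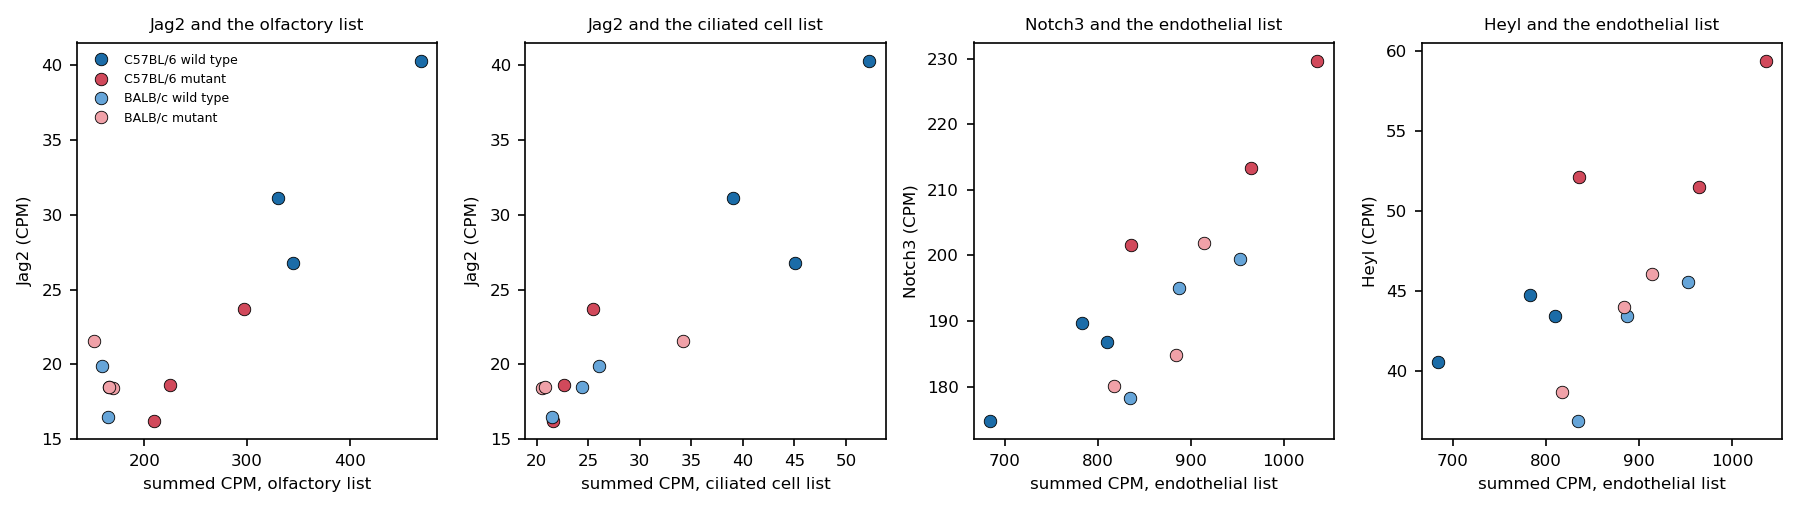
Levels of 3 Notch genes beside marker lists in the 12 samples: horizontal axes give the summed CPM of the olfactory, ciliated or endothelial list, vertical axes the CPM of Jag2, Notch3 or Heyl, and each point is 1 sample coloured by group. The highest Jag2 sample (40.3 CPM) has the highest olfactory level (470 CPM), and the highest Notch3 and Heyl sample (230 and 59.4 CPM) has the highest summed endothelial level (1036 CPM), although Pecam1 and Cdh5 of that list are highest in C57BL/6 mutant replicate 5. The mural list, not drawn here, is highest in C57BL/6 wild type replicate 2 (1090 CPM).

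In BALB/c, 0 of the 10 members were called between mutant and wild type, by edgeR or by DESeq2. The background was small as well: 0.136% of all genes were called by edgeR. At an unadjusted p under 0.05, 2 members stood out, Notch2 and Hes1 (beside 11.7% of all genes). Notch2 had 114, 133 and 113 CPM in wild type and 123, 142 and 145 in mutant. These samples overlapped, with a log2 difference of 0.19 (95% interval 0.03 to 0.35; edgeR adjusted p = 0.346). Hes1 had 65.1, 59.9 and 65.4 CPM in wild type and 55.5, 51.7 and 57.9 in mutant. All mutant samples were below all wild type samples, with a log2 difference of -0.21 (95% interval -0.38 to -0.03; edgeR adjusted p = 0.345).

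The remaining members were close between the BALB/c genotypes. Notch4 had 50.8, 49.3 and 45.8 CPM in wild type and 52.1, 51.1 and 51.9 in mutant, so the groups were just apart (log2 difference 0.09, 95% interval -0.12 to 0.30). Non-overlap was seen for 2 of 10 members, Notch4 and Hes1, beside 20.0% of all genes. Jag1 had 59.2, 64.8 and 55.3 CPM in wild type and 66.3, 64.3 and 69.2 in mutant, with a log2 difference of 0.16 (95% interval -0.01 to 0.33). Jag2, which fell in C57BL/6, had 19.9, 16.5 and 18.5 CPM in BALB/c wild type and 21.5, 18.4 and 18.5 in mutant. These 6 samples were all below the lowest C57BL/6 wild type sample, and the log2 difference was 0.09 (95% interval -0.26 to 0.44). Notch1 (77.6 to 89.6 CPM in wild type, 85.7 to 98.8 in mutant), Notch3 (178 to 200 and 180 to 202), Hey1 (28.2 to 35.1 and 30.7 to 36.9), Hey2 (2.34 to 3.38 and 2.15 to 3.48) and Heyl (36.8 to 45.5 and 38.7 to 46.05) overlapped between genotypes. These intervals bound each difference for this number of samples and do not show that the genotypes were equal.

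**Figure D4:**
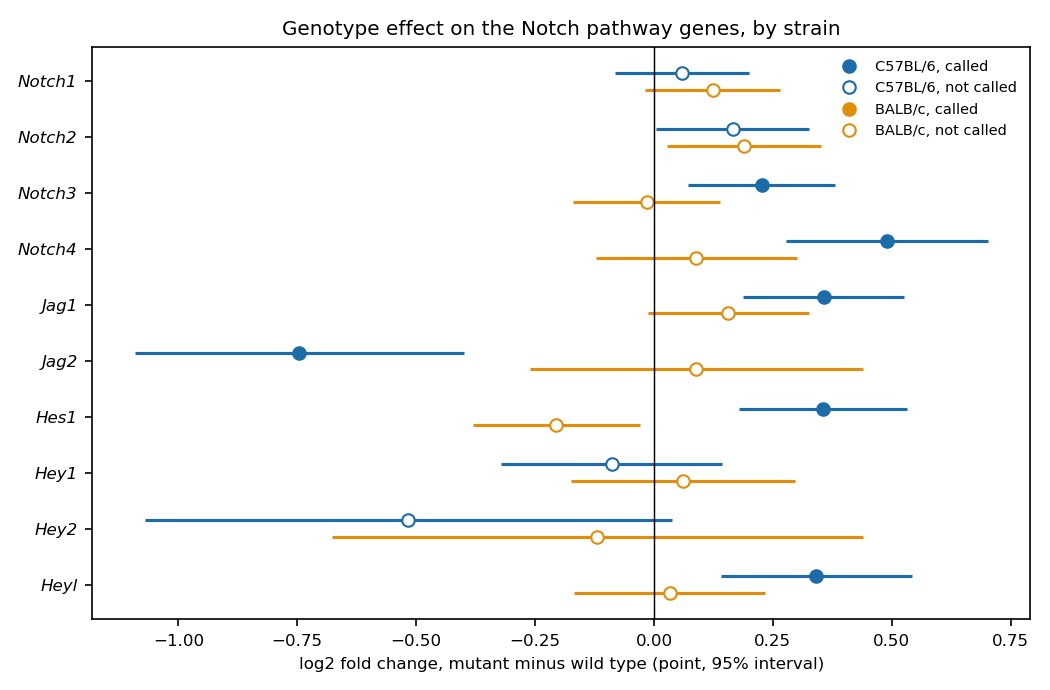
Genotype difference of the 10 Notch pathway genes on each background: points are log2 fold changes, mutant minus wild type, bars are 95% intervals, and filled points passed an edgeR adjusted p of 0.05. In C57BL/6, 5 filled points lie above 0 and Jag2 lies at -0.75; in BALB/c no point is filled.

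The genotype difference itself differed between strains for 2 members, Hes1 and Jag2, by the interaction term (genotype difference in BALB/c minus that in C57BL/6). Over all genes 5.46% were called with a term above 0 and 4.58% with a term below 0, beside 1 member each. For Hes1 the term was -0.56 on the log2 scale (SE 0.114; edgeR adjusted p = 0.0141): the gene was higher in mutant on C57BL/6 and its BALB/c mutant samples were the lower ones. For Jag2 the term was 0.83 (SE 0.225; edgeR adjusted p = 0.0400). An unadjusted p under 0.05 was reached by 5 members, beside 29.5% of all genes: besides Hes1 and Jag2 these were Notch3 (-0.24), Notch4 (-0.40) and Heyl (-0.31), with edgeR adjusted p of 0.133, 0.0808 and 0.138, so these 3 did not pass. Notch4 was called by DESeq2 (-0.40; adjusted p = 0.0470) and, by edgeR, without C57BL/6 wild type replicate 2 (0.0434) or mutant replicate 4 (0.0316), whereas Notch3 and Heyl were called under no alternative run. The other terms were 0.06 for Notch1, 0.02 for Notch2, -0.20 for Jag1, 0.15 for Hey1 and 0.40 for Hey2, none of which passed. The Hes1 call stood in all 12 fits that left out 1 sample and was lost with total counts (-0.32; edgeR adjusted p = 0.151). The Jag2 call was lost in 10 of those 12 fits (all but those without C57BL/6 wild type replicate 3 or mutant replicate 4; edgeR adjusted p up to 0.0926), and with the Y-linked covariate (0.0682). Both calls were lost with either cell covariate, in fits that called 5 (ciliated) and 137 (endothelial) of all genes. The Hes1 term was as large there, at -0.57 with the ciliated and -0.60 with the endothelial covariate, whereas that of Jag2 was 0.17 and 0.58.

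The same term was called for genes of several marker lists. It was above 0 for 7 of 7 tested erythroid, 4 of 7 lymphoid, 4 of 7 tested skeletal muscle, 3 of 9 myeloid (1 below) and 2 of 7 cartilage genes, and below 0 for 7 of 9 osteoclast and 6 of 13 osteoblast genes. Of the lists used as covariates, 1 of 10 ciliated and 0 of 14 endothelial genes were called by edgeR (5 endothelial genes had an unadjusted p under 0.05, all below 0). Of the basal epithelial list 0 of 7 were called (3 had an unadjusted p under 0.05, all above 0), and of the olfactory list 2 of 7, 1 in each direction. Without BALB/c mutant replicate 16, which held most of the muscle signal, the Hes1 term was -0.56 (edgeR adjusted p = 0.0339) and the Jag2 term 0.77 (0.0879). The part of the blood, bone, cartilage and muscle lists in the 2 calls was not tested.

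Between wild types, 6 members differed by strain: Hes1 and Notch4 were higher in BALB/c, and Notch1, Notch2, Jag2 and Hey1 were lower. In this comparison 48.5% of all genes were called, 22.8% higher and 25.6% lower. It shares its C57BL/6 wild type samples with the genotype comparison above, so the values are set side by side and not counted as separate evidence. Hes1 showed 59.9 to 65.4 CPM in BALB/c and 39.2 to 44.9 in C57BL/6, a log2 difference of 0.61 (SE 0.081; edgeR adjusted p = 0.000131). Notch4 showed 45.8 to 50.8 CPM in BALB/c and 29.4 to 39.3 in C57BL/6, a log2 difference of 0.47 (SE 0.098; edgeR adjusted p = 0.00213). No samples of the 2 strains overlapped for these genes or for the other 4 called members, beside 57.5% of all genes. Notch2 showed 113 to 133 CPM in BALB/c against 174 to 179 in C57BL/6, a log2 difference of -0.56 (SE 0.074; edgeR adjusted p = 0.000132). Notch1 showed 77.6 to 89.6 CPM against 109 to 113, a log2 difference of -0.39 (SE 0.065; edgeR adjusted p = 0.000603). Both receptors were lower in every BALB/c sample. Jag2, at 16.5 to 19.9 CPM against 26.8 to 40.3, had a log2 difference of -0.84 (SE 0.160; edgeR adjusted p = 0.00133). Hey1, at 28.2 to 35.1 CPM against 38.4 to 48.8, had a log2 difference of -0.40 (SE 0.108; edgeR adjusted p = 0.00977), a call that was lost without C57BL/6 wild type replicate 1 (0.0504).

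Notch3 (log2 difference 0.06), Jag1 (-0.13), Hey2 (-0.34) and Heyl (-0.03) did not pass the test between wild types and overlapped in their samples, and with total counts Notch3 turned to -0.06 and Jag1 was called (-0.24; edgeR adjusted p = 0.0199). The olfactory (7 of 7 called), basal epithelial (7 of 7) and ciliated (7 of 10) markers were lower in BALB/c wild type too, and 4 endothelial genes were called higher and 1 lower. Cartilage genes were lower as well (4 of 7 called), mural genes had 1 of 12 called higher and 3 lower, and of the blood lists 4 of 7 tested erythroid, 4 of 9 myeloid and 4 of 7 lymphoid genes (1 lower) were called higher. Osteoblast genes had 5 of 13 called higher and 2 lower, and osteoclast genes 3 of 9 higher. Krt14 was at 0 in all 6 BALB/c libraries. The part of these cell types in the strain differences was not tested, apart from the covariate fits: with the ciliated covariate 0 members and 631 of the 16190 genes were called. In that fit Notch1 (-0.40), Notch2 (-0.55) and Hes1 (0.62) had log2 differences within 0.02 of those without it, with edgeR adjusted p of 0.157, 0.0912 and 0.0863, while Jag2 was at -0.10, Hey1 at -0.20 and Notch4 at -0.00386. With the endothelial covariate 4 members were called, beside 3082 genes: Notch1 (-0.52), Notch2 (-0.52), Hes1 (0.65) and Heyl (-0.32). Sex was unequal between the wild types too, and with the Y-linked covariate 6 members were called, beside 6895 genes. Strain and sequencing run cannot be told apart in any of these values. The share of the library total, derived from the deposited RPKM values, that lay in gene counts also split by strain. It was 75.6% to 80.7% in C57BL/6 and 86.4% to 88.0% in BALB/c libraries, and its part in these values was not tested.

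Between mutants, 4 members differed by strain, and all 4 were lower in BALB/c: Notch2, Notch1, Jag1 and Heyl. In this comparison 36.9% of all genes were called, 18.9% lower, beside 0 members higher and 4 lower. Samples did not overlap for 5 members, the 4 called and Hey1, all lower in BALB/c, beside 50.2% of all genes in either direction and 24.8% lower. Notch2 showed 123 to 145 CPM in BALB/c mutants and 196 to 201 in C57BL/6 mutants, a log2 difference of -0.54 (SE 0.074; edgeR adjusted p = 0.000193). Notch1 showed 85.7 to 98.8 CPM against 113 to 118, a log2 difference of -0.33 (SE 0.065; edgeR adjusted p = 0.00220). These 2 receptors were thus lower in BALB/c in both genotypes, without overlap. Jag1 showed 64.3 to 69.2 CPM against 75.0 to 92.3, a log2 difference of -0.33 (SE 0.077; edgeR adjusted p = 0.00600). Heyl showed 38.7 to 46.05 CPM against 51.5 to 59.4, a log2 difference of -0.34 (SE 0.091; edgeR adjusted p = 0.0120), a call that was lost without C57BL/6 mutant replicate 6 (0.0581) or BALB/c mutant replicate 17 (0.0635). With total counts Notch1 (-0.21; edgeR adjusted p = 0.0602) and Heyl (-0.22; 0.0766) were not called and Notch4 was (0.19; 0.0471). Hes1 (log2 difference 0.05), Notch4 (0.07) and Jag2 (-0.01), which differed between wild types, did not pass the test between mutants, and the sign of the Jag2 value turned under several settings. Notch3 (-0.19; edgeR adjusted p = 0.0572), Hey1 (-0.25; 0.0900) and Hey2 (0.06; 0.887) did not pass either. Notch3 lay near the threshold and was called by DESeq2 (-0.20; adjusted p = 0.0187) and, by edgeR, with RLE size factors (0.0475), with the ciliated (0.0342) or endothelial covariate (0.0140) and without C57BL/6 mutant replicate 4 (0.0436). Hey1 was called in the fit of the mutants alone (-0.23; edgeR adjusted p = 0.0430).

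Markers of other cell types differed between the mutants as well. In BALB/c mutants 7 of 7 tested erythroid genes were called higher (median log2 difference 3.08), as were 7 of 9 myeloid (2 lower) and 6 of 7 lymphoid genes (1 lower). The skeletal muscle list, with 5 of 7 tested genes called higher, and the Schwann cell list, with 1 of 5 called higher, were unequal within BALB/c mutants: replicates 16, 17 and 18 summed to 366, 22.2 and 2.36 CPM for muscle and 547, 22.6 and 21.7 for Schwann cells. Without replicate 16 the 4 members were still called, at -0.37 for Notch1, -0.46 for Notch2, -0.32 for Jag1 and -0.39 for Heyl (edgeR adjusted p 0.00117 to 0.0255). Of the bone lists, 8 of 9 osteoclast genes were called lower, and 7 of 13 osteoblast genes lower and 3 higher. The endothelial list had 2 of 14 called higher and 2 lower, the mural list 2 of 12 higher and 3 lower, and the ciliated list 1 of 10 higher. Of the olfactory list 3 of 7 were called lower and of the basal epithelial list 2 of 7. With either cell covariate the 4 called members kept their calls and Notch3 joined them. The covariates themselves overlapped between the mutant groups. The endothelial one (mean log2 CPM) was 5.49 to 5.73 in C57BL/6 and 5.51 to 5.70 in BALB/c. The ciliated one was -0.98 to 0.42 in C57BL/6 and -0.72 to -0.57 in BALB/c. Such covariates can take away little of this strain contrast, so the kept calls do not test cell make-up. The part of the blood, muscle, nerve, mural, epithelial and bone lists in these differences was not tested.

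**Figure D5:**
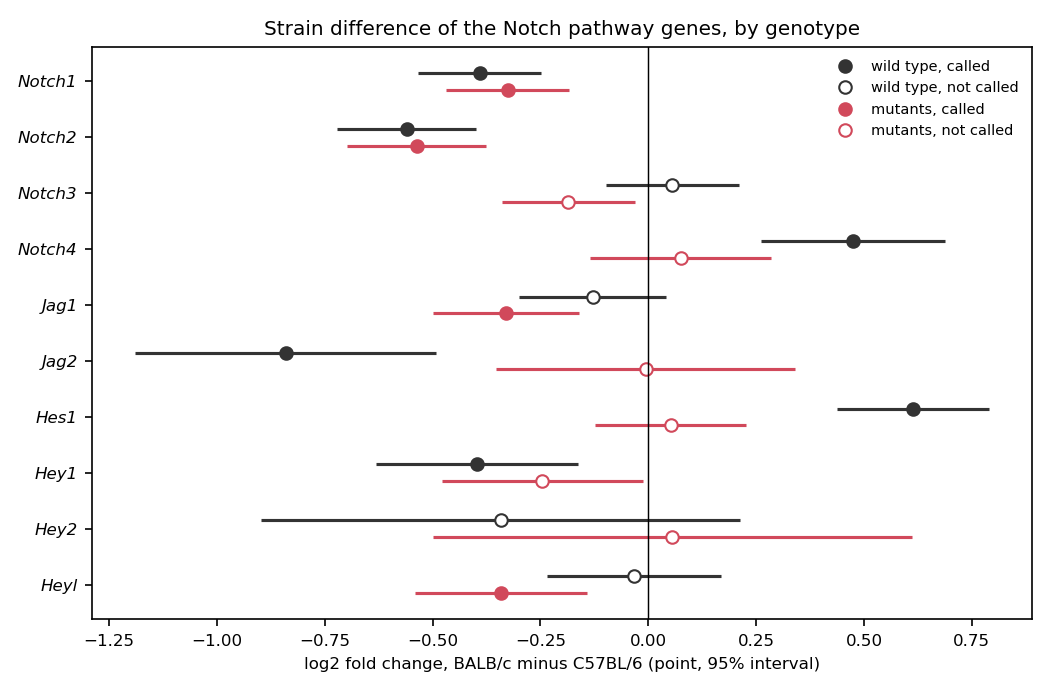
Strain difference of the 10 Notch pathway genes in each genotype: points are log2 fold changes, BALB/c minus C57BL/6, bars are 95% intervals, and filled points passed an edgeR adjusted p of 0.05. Notch1 and Notch2 are filled and below 0 in both genotypes (-0.39 and -0.56 in wild type, -0.33 and -0.54 in mutants), while Hes1 (0.61), Notch4 (0.47), Jag2 (-0.84) and Hey1 (-0.40) are filled in wild type alone.

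Of 48 other genes of the pathway in 7 lists, 45 were tested. Between the C57BL/6 genotypes 7 of the 45 were called higher and 8 lower (all genes: 11.3% and 12.6%), with a median log2 difference of 0.10. By role, 3 of 10 genes of receptor cleavage were called higher and 0 lower. Adam10, which makes the first cut after ligand binding, had 131 ± 3.30 CPM in wild type and 172 ± 18.5 in mutant (log2 difference 0.39; edgeR adjusted p = 0.00331). Furin, which cuts the receptor as it matures, had 160 ± 13.3 and 192 ± 7.59 CPM (0.27; edgeR adjusted p = 0.0122). Of 9 genes of the nuclear complex, 2 were called higher and 1 lower. The higher ones were the Mastermind coactivators Maml3, with 28.4 ± 0.848 and 39.6 ± 1.62 CPM (0.48; edgeR adjusted p = 0.00286), and Maml1, with 64.0 ± 0.929 and 79.1 ± 6.06 CPM (0.31; edgeR adjusted p = 0.00483). Furin and Maml1 were not called with total counts (0.08 and 0.11), and Furin was not called without C57BL/6 mutant replicate 6 or in the fit of the 6 C57BL/6 samples alone (edgeR adjusted p = 0.0851).

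The other 8 pathway genes called in C57BL/6 mutants were lower. Dner, a non-classical ligand known from neurons, had 9.48 ± 1.67 CPM in wild type and 3.49 ± 1.14 in mutant (log2 difference -1.44; edgeR adjusted p = 0.00327). Neurl1b, a ubiquitin ligase that promotes ligand endocytosis, had 11.9 ± 1.94 and 7.04 ± 0.383 CPM (-0.75; edgeR adjusted p = 0.00428). Mfng, a fringe enzyme that adds sugars to Notch and alters its choice of ligand, had 15.95 ± 1.45 and 9.33 ± 2.00 CPM (-0.77; edgeR adjusted p = 0.00245). Hes6, a Hes-family protein that counteracts Hes1 and is known from neural precursors, had 37.2 ± 8.32 and 16.3 ± 7.21 CPM (-1.19; edgeR adjusted p = 0.00565), a call that was lost in the fit of the 6 C57BL/6 samples alone (0.0600). Counts by list were 0 higher and 2 lower of 6 other ligands, 0 and 1 of 5 glycosylation genes, 0 and 2 of 4 ligand endocytosis genes, 2 and 1 of 8 receptor turnover genes, and 0 and 1 of the 3 tested of 6 other targets. All 8 genes named here for C57BL/6 lost their call with either cell covariate, but their differences varied. With the ciliated covariate Maml3 stood at 0.44, Maml1 at 0.21, Adam10 at 0.11, Furin at 0.0386, Neurl1b at -0.44, Dner at -0.64, Mfng at -0.22 and Hes6 at 0.00752. With the endothelial covariate they were 0.33, 0.24, 0.22, 0.16, -0.64, -1.02, -0.55 and -0.61, in the same order. In BALB/c 0 of the 45 were called between genotypes.

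Between wild types 9 of the 45 were called higher in BALB/c and 12 lower (all genes: 22.8% and 25.6%). Mib1, a ubiquitin ligase needed in ligand-sending cells, had 6.66 ± 0.612 CPM in BALB/c and 14.7 ± 0.401 in C57BL/6 (log2 difference -1.14; edgeR adjusted p = 2.48e-05). Maml2 had 10.1 ± 1.48 and 20.4 ± 1.85 CPM (-1.01; edgeR adjusted p = 2.70e-05). Ncstn, a gamma-secretase subunit, had 83.2 ± 2.96 and 106 ± 3.13 CPM (-0.35; edgeR adjusted p = 0.000510), and Itch, a ligase that marks Notch for degradation, had 55.0 ± 2.51 and 72.1 ± 3.93 (-0.39; 0.00110). In the other direction Nrarp, a target that feeds back on the Notch complex, had 13.3 ± 0.505 CPM in BALB/c and 7.31 ± 0.516 in C57BL/6 (0.87; edgeR adjusted p = 0.000908), so it was higher in BALB/c wild type as Hes1 was. Aph1a, another gamma-secretase subunit, was higher by 0.33, Cir1, a corepressor partner of RBPJ, by 0.34, and Numbl, an inhibitor of Notch, by 0.35. With the ciliated covariate Mib1 (-1.13) and Ncstn (-0.55) kept their calls, and Maml2 (-0.84), Itch (-0.51), Nrarp (0.73), Aph1a (0.14), Cir1 (0.0928) and Numbl (-0.0179) lost theirs. With the endothelial covariate Nrarp (0.64), Cir1 (0.25) and Numbl (0.28) lost theirs, and the other 5 kept them.

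Between mutants 7 of the 45 were called higher in BALB/c and 13 lower (all genes: 36.9% in either direction, 18.9% lower). Mib1 was again lower, with 7.02 ± 1.17 CPM in BALB/c and 17.7 ± 0.836 in C57BL/6 (log2 difference -1.34; edgeR adjusted p = 7.68e-06), and Ncstn (-0.50), Itch (-0.49) and Adam10 (-0.41) were lower too. Dlk1, a non-classical ligand of progenitor cells, had 124 ± 59.8 CPM in BALB/c and 32.7 ± 2.68 in C57BL/6 (1.92; edgeR adjusted p = 0.00119), followed by Dner (1.21), Neurl1a (0.73) and Cir1 (0.30). The interaction term was called for 7 of the 45 (all genes: 5.46% above 0 and 4.58% below 0): it was above 0 for Hes6 (1.22), Neurl1b (0.85), Mfng (0.73) and Maml2 (0.57), and below 0 for Maml3 (-0.43), Numbl (-0.41) and Adam10 (-0.34). Each of these 7 lost its call in at least 4 of the 12 fits that left out 1 sample, and with either cell covariate. Other settings also ended calls. Adam10 was lost with RLE size factors (edgeR adjusted p = 0.0525), no filter (0.0528), halved counts (0.0537), total counts (-0.11; 0.403) and the Y-linked covariate (0.0707). Maml3 was lost with no filter (0.0513), total counts (-0.20; 0.294) and the Y-linked covariate (0.0720), Numbl with total counts (-0.18; 0.196) and Hes6 with the Y-linked covariate (0.0637). With the endothelial covariate the Maml2 term was 0.60, Neurl1b 0.74, Hes6 0.66, Mfng 0.51, Numbl -0.33, Maml3 -0.28 and Adam10 -0.18. With the ciliated covariate the Maml3 term was -0.38, Neurl1b 0.51, Maml2 0.41, Mfng 0.13, Numbl -0.0644, Adam10 -0.0477 and Hes6 -0.0820.

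Members were also compared by how they varied among samples of the same group, as Pearson's r of the deviations of log2 CPM from the group means over the 12 samples, over all 45 pairs. These are descriptions: the points share libraries, depth and tissue composition. The highest value was 0.90 for Notch3 and Heyl (Spearman's rho 0.92), followed by 0.83 for Notch1 and Heyl, 0.75 for Notch1 and Notch3, 0.72 for Jag2 and Hey2, and 0.68 for Notch4 and Jag1. The lowest were -0.72 for Notch4 and Jag2 and -0.70 for Jag1 and Jag2 (rho -0.60 and -0.73). Pooled over the groups, samples with more Jag1 tended to have less Jag2, but only in C57BL/6 mutants was the full order reversed. In BALB/c mutants replicate 17 was the lowest in both (64.3 and 18.4 CPM). The genes closest to each member were picked as the highest r among 12783 genes with a mean of at least 1 CPM. With 8 residual degrees of freedom, such picking alone gives high values, and no baseline for it was run. The pattern closest to that of Heyl was Tie1 (r = 0.95), an endothelial receptor kinase, then Ttyh2 (0.92) and Cfhr2 (0.92). Those closest to Notch3 were Fundc1 (0.95), Tie1 (0.94) and Foxp1 (0.93). Notch4 was closest to Sdc2 (0.98), Sdc3 (0.97) and Pdgfa (0.96), the first pair being cell-surface syndecans. Jag1 was closest to Zfp281 (0.96), Lclat1 (0.93) and Tmem87b (0.92), and Jag2 to Abhd11 (0.96), Znrf1 (0.95) and Wbp1 (0.95). Notch1 was closest to Gucy1b3 (0.94), Mir3064 (0.92) and Cbfa2t3 (0.92), and Notch2 to Slc26a2 (0.98), a sulfate transporter of cartilage, Cpeb4 (0.95) and Gfpt1 (0.95). Hes1 was closest to Anp32e (0.95), Tdp2 (0.92) and Taf13 (0.91), Hey1 to Zfp91 (0.95), Supt16h (0.94) and Fnbp1l (0.94), and Hey2 to Lgi1 (0.97), Ctnnal1 (0.96) and Arnt2 (0.94).

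In the authors' deposited table of group comparisons, 4 of the 10 members had a q-value under 0.05 between the C57BL/6 genotypes, beside 25.3% of all genes with a q-value. In the authors' deposited table these were Notch4 (log2 fold change 0.48, q = 0.00268), Jag1 (0.33, q = 0.0388), Hes1 (0.36, q = 0.0347) and Jag2 (-0.68, q = 0.000219). Notch3 (0.22, q = 0.288) and Heyl (0.31, q = 0.101) did not pass there, in the authors' deposited table. The authors' deposited table had 0 members under that threshold between the BALB/c genotypes (all genes: 1.43%), 5 between wild types (45.3%) and 1, Notch2, between mutants (36.1%). Its samples are the ones analysed above, so it is a second processing of the same data.

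The gene rows can also take reads of overlapping genes, since the sources used here do not state whether counting used strand. The count table has a row for Mir3110 inside Jag1, and GENCODE places other genes over parts of Notch1, Notch2, Notch3 (an antisense gene), Notch4 and Jag2. Of the 50-base words of Notch2 transcripts, 3.755% also occur in Gm42820, and at most 0.087% of those of the other members occur in another gene.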

How the data were processed

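RNA was sequenced from 12 samples in 4 groups of 3. The authors deposited raw gene counts with an RPKM value, a position and a length per gene; the submitters' processing notes name bcl2fastq, TopHat2 2.0.6, HTSeq, DESeq2 and mm10, without roles. The authors' deposited RPKM values were used only to check that counts and lengths belong together and to derive the library total that they imply. Comparisons of 4 pairs of groups were deposited as well, as p-values, q-values and log2 fold changes. Annotation, strand setting and DESeq2 version are not given in the sources used here. All deposited counts were even.

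The tests used edgeR 4.0.16 (R 4.3.3) on these counts. The filter filterByExpr (minimum count 10, minimum total 15) and TMM scaling were applied, and 1 mean per group was fitted to all 12 samples (8 residual degrees of freedom). The 5 contrasts were the genotype difference in each strain, the strain difference in each genotype, and their interaction. Adjustment followed Benjamini and Hochberg over 16190 genes, and an adjusted p under 0.05 was called. SE and 95% intervals come from the quasi-likelihood F statistic. Log2 CPM used a prior count of 2.

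All 10 members are named in every comparison. Of 48 other pathway genes, counts are given and up to 4 called genes per direction with the smallest adjusted p are named. For each member, the 3 genes most like it are named, with a mean of at least 1 CPM. The members and lists were chosen with earlier results of these data known. Marker genes were matched by name, Dnah5, Dnah9, Cfap43 and Adgre1 under the table's older names, and Epb42 had no match. Alternatives were DESeq2 1.42.0, limma-voom (limma 3.58.1), other scalings, no filter, single pairs of groups, covariates and leaving out each sample. The scripts were tested on simulated data.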

Additional observations from a re-analysis of the deposited data

Results flagged for a closer look

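The genotype difference of Hes1 differed between strains, by the interaction term of the model over all 12 samples: -0.56 on the log2 scale (edgeR adjusted p = 0.0141). Hes1 rose in mutant on C57BL/6 in 3 of 3 samples against every wild type sample (log2 0.36), and on BALB/c its 3 mutant samples were below every wild type sample without passing the test (-0.21).

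The genotype difference of Jag2 differed between strains by the same term, 0.83 (edgeR adjusted p = 0.0400). Jag2 was lower in 3 of 3 C57BL/6 mutant samples (log2 -0.75), while the BALB/c samples of both genotypes overlapped (0.09). This call was lost in 10 of 12 fits that left out 1 sample.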

How the results depend on the processing

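No paired analysis was possible because the replicate numbers are not shared between groups. Genes called (members called in parentheses) under the main settings were 3867 (6) for genotype in C57BL/6, 22 (0) for genotype in BALB/c, 7847 (6) for strain in wild type, 5968 (4) for strain in mutants and 1626 (2) for the interaction. Leaving out each sample in turn gave 1724 to 4833 (4 to 6), 0 to 95 (0), 6567 to 7319 (5 to 6), 4500 to 5374 (3 to 5) and 624 to 3129 (1 to 3). DESeq2 called 316 genes for genotype in BALB/c and 2690 for the interaction, and limma-voom called 44 for genotype in BALB/c. Fits of the compared groups alone called 1458 genes (3 members) for genotype in C57BL/6 and 71 for genotype in BALB/c. Total counts called 4 genes for genotype in BALB/c, 2 members for genotype in C57BL/6 and 1 member for the interaction. The Y-linked covariate called 4 genes for genotype in BALB/c and 1 member for the interaction. The ciliated covariate called 2 genes (0 members) for genotype in C57BL/6, 631 (0) for strain in wild type and 5 (0) for the interaction. The endothelial covariate called 174 (0), 3082 (4) and 137 (0). The halving of all counts, chosen after seeing the data because all counts were even, moved no member across the threshold, though the interaction of Adam10 lost its call; the named pathway genes were also added to the alternatives after seeing the data.

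Signs turned for values that were not called, except for 3 genes under the ciliated covariate: Notch4 for strain in wild type (-0.00386), Hes6 for genotype in C57BL/6 (0.00752) and for the interaction (-0.0820), and Numbl for strain in wild type (-0.0179) were called under the main settings. With that covariate Hey1 was 0.0829 and Hey2 0.20 for genotype in C57BL/6, Notch3 was -0.14 and Hey2 0.50 for strain in wild type, Jag2 was 0.0690 for strain in mutants, and the interaction was 0.0408 for Notch4, 0.0419 for Jag1, -0.0337 for Hey1 and -0.38 for Hey2. With the endothelial covariate Notch1 was -0.0776 for genotype in C57BL/6, Notch3 -0.15 for strain in wild type, Jag2 0.00419 for strain in mutants and Notch2 -0.0154 for the interaction. With total counts Notch1 was -0.14 and Notch2 -0.0293 for genotype in C57BL/6, Notch3 0.0214 for genotype in BALB/c and -0.0559 for strain in wild type, Jag2 0.11 for strain in mutants and Jag1 0.0315 for the interaction. For strain in mutants Jag2 was 0.00635 with the Y-linked covariate and 0.00332 in the fit of the compared groups alone, and Hey2 was -0.00547 with limma-voom. Leaving out each sample, values crossed 0 for Hey1 in C57BL/6 genotypes (-0.16 to 0.0357), for Notch3 (-0.0623 to 0.0244), Hey1 (-0.0333 to 0.13), Hey2 (-0.36 to 0.0250) and Heyl (-0.0523 to 0.11) in BALB/c genotypes, for Heyl between wild types (-0.10 to 0.0562), for Jag2 (-0.12 to 0.16) and Hey2 (-0.19 to 0.19) between mutants, and for Notch2 in the interaction (-0.0215 to 0.11). The cause of these changes was not tested.

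With 3 samples per group and 1 run name per strain, precision is set by the spread between samples, and for Hey2 also by its 80 to 180 counts. Intervals cover the spread between these samples. Cell make-up and sequencing run were unequal between groups, as was sex between the C57BL/6 genotypes and between the wild types.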
